A study of Homo sapiens with 18 samples.

Results

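The epidermal growth factor (EGF) receptor family and its ligands were examined in human cells treated with a microRNA mimic. The 8 genes were chosen by symbol, with no cut on their values, but with earlier results of these data known. The choice comprised the receptors EGFR, ERBB2 and ERBB3, the ligands AREG, EREG, HBEGF and TGFA, and ERRFI1, an inhibitor of the receptors. These 8 were among the 16715 genes that stood in at least 1 of 2 expression tables, 1 for each cell line. The table of MCF10A cells held all 8, and that of hTERT RPE-1 cells held 6, so AREG and EREG were not analysed here in the second line. The study asked how mimics of the MIR-28 family, named hsa-miR-28-5p (miR-28 below) and hsa-miR-708-5p (miR-708), change the transcriptome of cells in which they repress ribosome biogenesis. PolyA+ RNA was sequenced from 18 libraries, 9 of each line, in 3 groups of 3 biological replicates. Cells received 30 nM siNT (a pool of non-targeting siRNAs), miR-28 or miR-708 for 72 h. Replicates of MCF10A carried the numbers 7, 8 and 9, those of hTERT RPE-1 the numbers 1, 2 and 3, and values of 3 libraries follow in that order. siNT was the control for both mimics, so the comparisons of a line share their control libraries. A group with a non-targeting mimic was not analysed here.

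EGFR is a cell surface tyrosine kinase. Its ligands are made as membrane-bound precursors that proteases such as ADAM17 cut free, and a bound receptor pairs with a second EGFR or with ERBB2, which has no known ligand of its own, or ERBB3, whose kinase is weak and which mainly recruits PI3K. The active pair signals through RAS, RAF and MEK to ERK, and the pathway limits itself through ERRFI1 (also called MIG6), which binds the receptor kinase, through Sprouty proteins and through the phosphatase DUSP6. MCF10A is a non-transformed breast epithelial line that needs EGF to grow, and EGF was a component of its medium. hTERT RPE-1 is a retinal pigment epithelial line kept dividing by telomerase, and its medium held serum with no EGF named.

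A microRNA represses mRNAs that pair with its seed, bases 2 to 8, mostly in the 3′ UTR, and the study describes the seed as shared by the 2 mimics. The mature sequence of hsa-miR-708-5p in RefSeq (GRCh38.p14, chromosome 11, 79402077 to 79402099, minus strand) is shown because its seed, in capitals, defines the motifs searched in the members.
hsa-miR-708-5p: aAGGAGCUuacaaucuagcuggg
The 3′ UTRs of the 8 genes (GENCODE 44, hg38, the transcript with the longest 3′ UTR of each gene, sense strand only) were searched for AGCTCCT, which pairs with the whole seed, and GCTCCTA, which pairs with bases 2 to 7 and ends in an A. Where these overlap they form an 8-base match, and both contain the 6-base match GCTCCT, which was searched as well. EGFR was the member with a 7-base match, and it had 2, both AGCTCCT, in exon 28, the last exon. The GCTCCT within these 2 matches starts at bases 2947 and 4878 of a 3′ UTR of 6011 bases. Both 7-base matches are shown in capitals within 22 bases of their surroundings, on the plus strand at chr7:55208550-55208571 and chr7:55210481-55210502.
EGFR, first match: atcatctctaaggAGCTCCTct
EGFR, second match: tcgtagtttttaaAGCTCCTga
EREG had 1 match of 6 bases, at base 1370 of its 3′ UTR in exon 5 (chr4:74386164-74386185, plus strand), and ERRFI1 had 1 in a transcript other than its representative (MANE) one (chr1:8013828-8013849, minus strand).
EREG: ggattttatgggagGCTCCTtc
ERRFI1: ttcgggaccagctgGCTCCTtt
The other 5 genes, ERBB2, ERBB3, AREG, HBEGF and TGFA, had no match of either kind in that window. A 7-base match stood in 20.4% and a 6-base match in 38.3% of the 13751 genes tested in at least 1 line that had an annotated 3′ UTR. Among the 971 genes with a 3′ UTR of like length to that of EGFR, at 0.8 times it or more and at most the inverse of that ratio, 46.1% held a 7-base match. Such a match is a description of the sequence, not evidence of a site in use.

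The depth of the libraries, estimated from the step between their low values, was 19400000 to 31700000 reads on genes in MCF10A and 23800000 to 40300000 in hTERT RPE-1. RPS28, a ribosomal protein gene that the study followed, fell from a mean of 3870.0 to 567 and 624 with miR-28 and miR-708 in MCF10A and from 3219.5 to 147 and 153 in hTERT RPE-1. All 7 markers of basal breast epithelium were in the MCF10A table, and their summed value ran from 181769 to 188410 in siNT, from 115577 to 126602 with miR-28 and from 89582 to 115878 with miR-708. In hTERT RPE-1, 6 of 8 markers of retinal pigment epithelium were listed, with RPE65 and TYR absent from the table used here, and their summed value was 4320 to 5064, 3080 to 3240 and 3360 to 3600. Sums of 4 leukocyte markers in hTERT RPE-1, of which PTPRC and CD68 were listed, were 326 to 458, 527 to 3725 and 4795 to 7237, with a log2 fold change of CD68, a lysosomal protein gene, of 2.06 and 4.04. The share of values on nuclear rRNA genes was 15.1% in miR-28 replicate 1 of hTERT RPE-1 and 4.23 to 7.20% in the other 8 libraries of that line. Other marker sums moved too: 4 of 6 luminal markers, KRT8 and KRT18 among them, ran from 25743 to 28899, from 10043 to 11282 and from 5339 to 5875 in hTERT RPE-1, and the 5 mesenchymal markers from 159771 to 230408, from 131780 to 152202 and from 113932 to 126328. There the 2 listed of 4 endothelial markers ran from 224 to 351, from 564 to 684 and from 869.6 to 1248, and the 2 listed of 7 basal breast markers from 236 to 320.2, from 390.5 to 747 and from 947 to 1133. In MCF10A, 4 of 5 mesenchymal markers ran from 13534 to 19557 in siNT and from 20202 to 35209 with miR-708, 2 of 4 leukocyte markers from 433 to 704 and from 817 to 1037 with miR-708, and 4 of 8 retinal markers from 827 to 1141 and from 1398 to 1676 with miR-28. Of the genes called against siNT, 47.1% and 47.3% were higher with miR-28 and miR-708 in MCF10A, which became 66.1% and 67.6% when each library was scaled to the same sum, and in hTERT RPE-1 49.9% and 49.7% became 59.4% and 71.8%. The marker sums moved with the mimics, and their part in the results below was not tested.

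In MCF10A, EGFR and 2 of the 4 ligands, HBEGF and EREG, fell with both mimics, while the values of AREG, TGFA, ERBB2, ERBB3 and ERRFI1 overlapped between siNT and each mimic. HBEGF, the gene of heparin-binding EGF-like growth factor, fell to 34.8% of the siNT mean with miR-28 and to 46.7% with miR-708. EGFR fell to 74.2% and 63.9%, and EREG to 72.1% and 70.6%. A gene was called at a Benjamini-Hochberg adjusted p below 0.05 in limma, on the log2(value + 1) scale, over the 14726 genes of the line with values of 10 or more in 3 or more libraries, a filter that all 8 members passed. With miR-28, 3 of 8 members were called, all lower, beside 22.7% of all genes tested (12% lower), and with miR-708 the same 3 genes were called, beside 32.8% (17.3% lower). These 3 were also the members whose groups did not overlap, which was true of 41.8% and 46.6% of all genes. This fit had no replicate term, and with a replicate block 3 members were called with miR-28 and 5 with miR-708, beside 29.9% and 39.5% of all genes. The median log2 fold change over the 8 members was -0.089 with miR-28 and -0.14 with miR-708, beside 0.0056 and -0.0047 over all genes tested. Bulk values cannot tell fewer cells with an mRNA from less of it per cell.

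**Figure D1:**
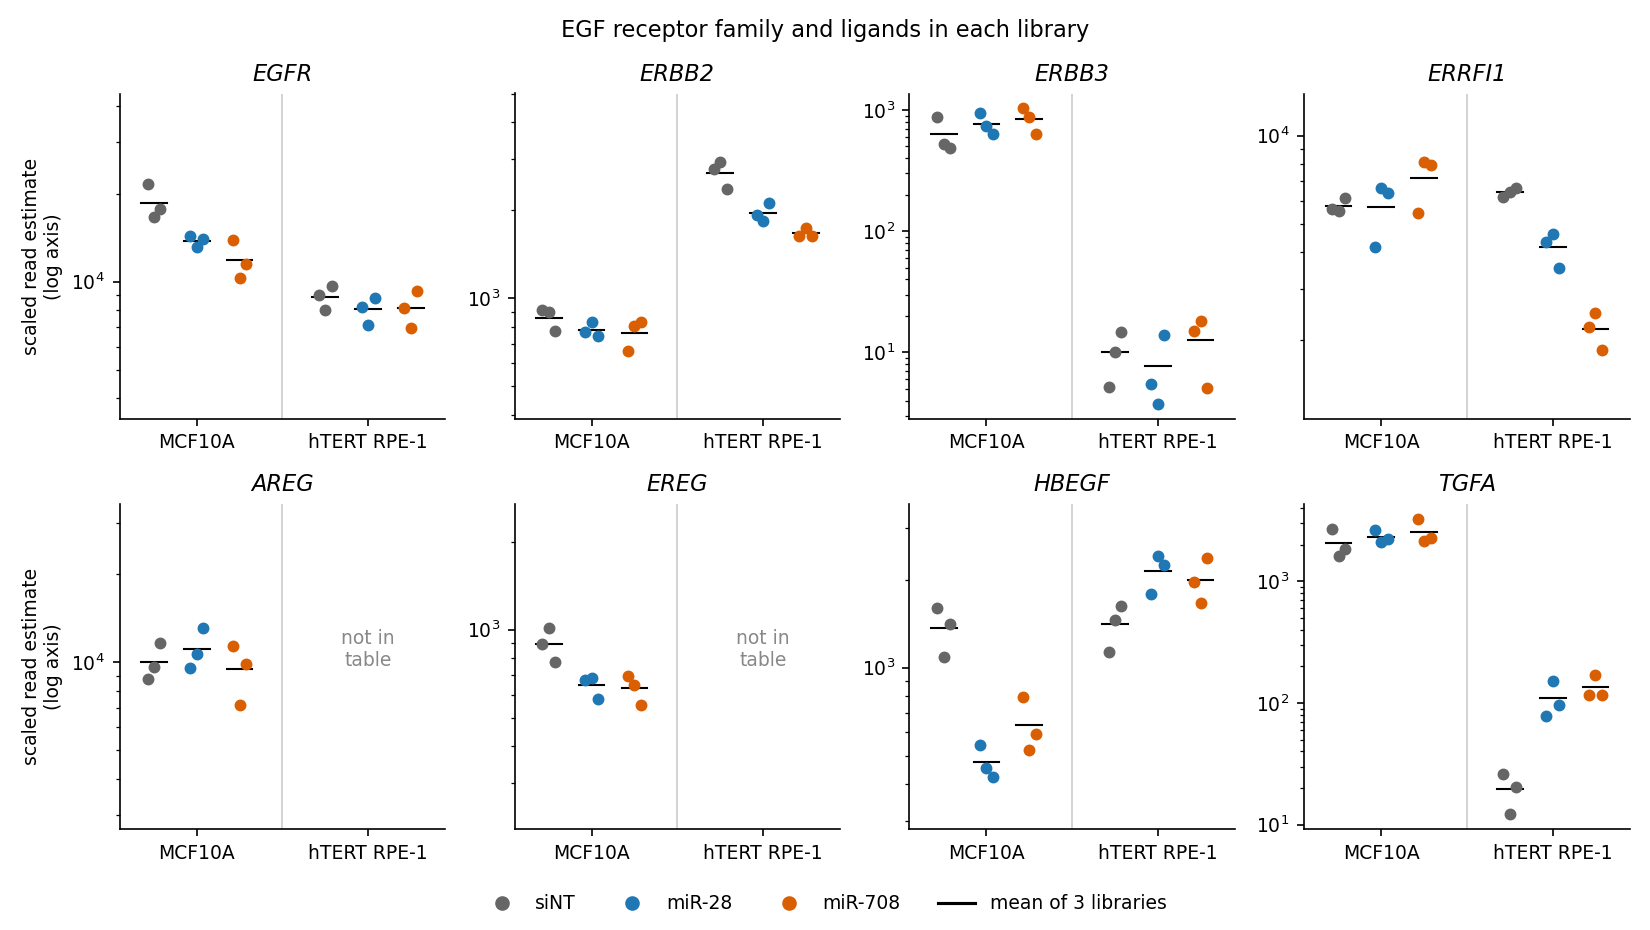
Scaled read estimates (log axis) of the 8 genes in each library, with 1 panel a gene, MCF10A left and hTERT RPE-1 right of the grey line, points for 3 libraries a group and a bar for their mean. In MCF10A the mimic libraries of EGFR, EREG and HBEGF lie below all siNT libraries, and in hTERT RPE-1 those of TGFA and HBEGF lie above and those of ERBB2 and ERRFI1 below them; AREG and EREG were not in the hTERT RPE-1 table.

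Among the receptors in MCF10A, EGFR (chromosome 7, 55019017 to 55211628, plus strand) had values of 21517, 16592 and 17754 in siNT, 14309.6, 13196 and 13955 with miR-28 and 13938, 10286 and 11454 with miR-708. Every mimic library was below every siNT library, and the mimic groups overlapped each other. The log2 fold change was -0.42 (SE 0.14, limma adjusted p = 0.044) with miR-28 and -0.65 (SE 0.14, adjusted p = 0.00408) with miR-708. The miR-28 call was lost when any 1 of the 6 siNT and miR-28 libraries was left out (log2 fold changes of -0.50 to -0.31, adjusted p of 0.0503 to 0.152) and without miR-708 replicate 9 (adjusted p = 0.0594), while the miR-708 call held in each case. The miR-28 call of EGFR was also lost when libraries were scaled to the same sum (-0.31, adjusted p = 0.0914) and without the variance trend (adjusted p = 0.0759). ERBB2 (chromosome 17, 39687914 to 39730426), the partner of the other receptors, was near level, at 909, 895 and 773 in siNT, 765, 829 and 742 with miR-28 and 661, 801 and 827 with miR-708. Its log2 fold changes were -0.14 (95% interval -0.40 to 0.12) and -0.17 (-0.43 to 0.086), neither called. ERBB3 (chromosome 12, 56076799 to 56103505) had values of 879.8, 528 and 488 in siNT, 952, 738 and 629 with miR-28 and 1032, 881 and 630.0 with miR-708. In each group replicate 7 was the highest, and the log2 fold changes were 0.32 (adjusted p = 0.363) and 0.45 (adjusted p = 0.181). Same-numbered libraries of MCF10A deviated together, and in the fit with a replicate block the miR-708 value of ERBB3 was called (log2 fold change 0.45, adjusted p = 0.0102), as it was without siNT replicate 7 (0.71, adjusted p = 0.0362). Exons of EGFR overlap EGFR-AS1, those of ERBB2 overlap MIEN1 and PGAP3 and those of ERRFI1 an unnamed gene, all on the opposite strand, and those of ERBB3 overlap an unnamed protein-coding gene on its own strand. Reads shared with the last could not be told apart by strand, and whether the counting used strand is not given in the sources used here, so reads of such pairs may not be told apart.

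Of the MCF10A ligands, HBEGF (chromosome 5, 140332843 to 140346603, minus strand) showed the largest change of the 4. Its values were 1592, 1088 and 1409.5 in siNT, 546, 454 and 422 with miR-28 and 792, 524 and 593 with miR-708. The highest mimic library lay below the lowest siNT library, and miR-28 replicate 7 lay just above the lowest miR-708 library. The log2 fold changes of HBEGF were -1.51 (SE 0.18, limma adjusted p = 0.000426) and -1.10 (SE 0.18, adjusted p = 0.00103), and both calls held without any 1 library. EREG, the gene of epiregulin (chromosome 4, 74365145 to 74388749, plus strand), had values of 894, 1016 and 777 in siNT, 672, 685 and 582 with miR-28 and 696, 648 and 552 with miR-708. The mimic groups overlapped each other and lay below siNT, with log2 fold changes of -0.47 (SE 0.13, adjusted p = 0.0292) and -0.50 (SE 0.13, adjusted p = 0.0148). The miR-28 call of EREG was lost without siNT replicate 7 or 8 or miR-28 replicate 8 or 9 (adjusted p of 0.0565 to 0.11), with libraries scaled to the same sum (-0.35, adjusted p = 0.0659) and without the trend (adjusted p = 0.0532), and the miR-708 call without siNT replicate 8 (-0.41, adjusted p = 0.0633) or miR-708 replicate 9 (-0.41, adjusted p = 0.066).

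AREG, the gene of amphiregulin, lies 56387 bases beyond EREG on the same strand (chromosome 4, 74445136 to 74455005), in a stretch that also holds the ligand genes EPGN and BTC. It had values of 8752, 9666 and 11619.7 in siNT, 9549, 10650.4 and 13088 with miR-28 and 11346, 7157 and 9880.2 with miR-708, groups that overlapped throughout. Its log2 fold changes were 0.15 (95% interval -0.24 to 0.53) and -0.098 (-0.49 to 0.29). TGFA (chromosome 2, 70447284 to 70554193, minus strand), the gene of transforming growth factor alpha, had values of 2687, 1622 and 1845 in siNT, 2639.9, 2109 and 2209 with miR-28 and 3269, 2140.0 and 2249 with miR-708. As for ERBB3, replicate 7 was the highest TGFA library of each group. The log2 fold changes of TGFA were 0.20 (adjusted p = 0.481) and 0.32 (adjusted p = 0.233), and with a replicate block the second was called (adjusted p = 0.0198; without siNT replicate 7 it was 0.53, adjusted p = 0.0494), which brought the members called with miR-708 to 5, 3 lower and 2 higher, beside 39.5% of all genes tested in the same fit. ERRFI1 (chromosome 1, 8004404 to 8026309, minus strand) had values of 5629, 5541 and 6112 in siNT, 4152, 6635 and 6371 with miR-28 and 5421, 8094 and 7958 with miR-708. Replicate 7 was the lowest library of both mimic groups, and the log2 fold changes were -0.040 (adjusted p = 0.902) and 0.29 (adjusted p = 0.26).

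The 2 mimics were then compared with each other in MCF10A. limma called 0 of 8 members at an adjusted p below 0.05, beside 1.55% of all genes tested, and 1 member, HBEGF, had an unadjusted p below 0.05. HBEGF was higher with miR-708 than with miR-28 by 0.41 on the log2 scale (95% interval 0.016 to 0.80, unadjusted p = 0.0426, adjusted p = 0.301). The interval for EGFR was -0.52 to 0.070 around -0.23, and that for ERRFI1 -0.081 to 0.74 around 0.33, so differences of that size were not detectable with 3 libraries a group.

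In hTERT RPE-1, other members moved. TGFA and HBEGF rose with both mimics, ERBB2 and ERRFI1 fell, and the groups of EGFR overlapped. The mean of TGFA was 5.58 times the siNT mean with miR-28 and 6.86 times with miR-708, and that of ERRFI1 was 64.7% and 34.1% of it. With each mimic 4 of the 6 listed members were called, 2 higher and 2 lower, beside 46.8% of the 14527 genes tested with miR-28 (23.3% higher, 23.5% lower) and 62.1% with miR-708 (30.9% higher, 31.2% lower). The same 4 genes were those whose groups did not overlap, as was the case for 54.4% and 69.2% of all genes. The count with miR-708 is near the share of all genes called. The median log2 fold change over the 6 members was -0.28 with miR-28 and 0.062 with miR-708, beside 0.0061 and 0.0021 over all genes tested.

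**Figure D2:**
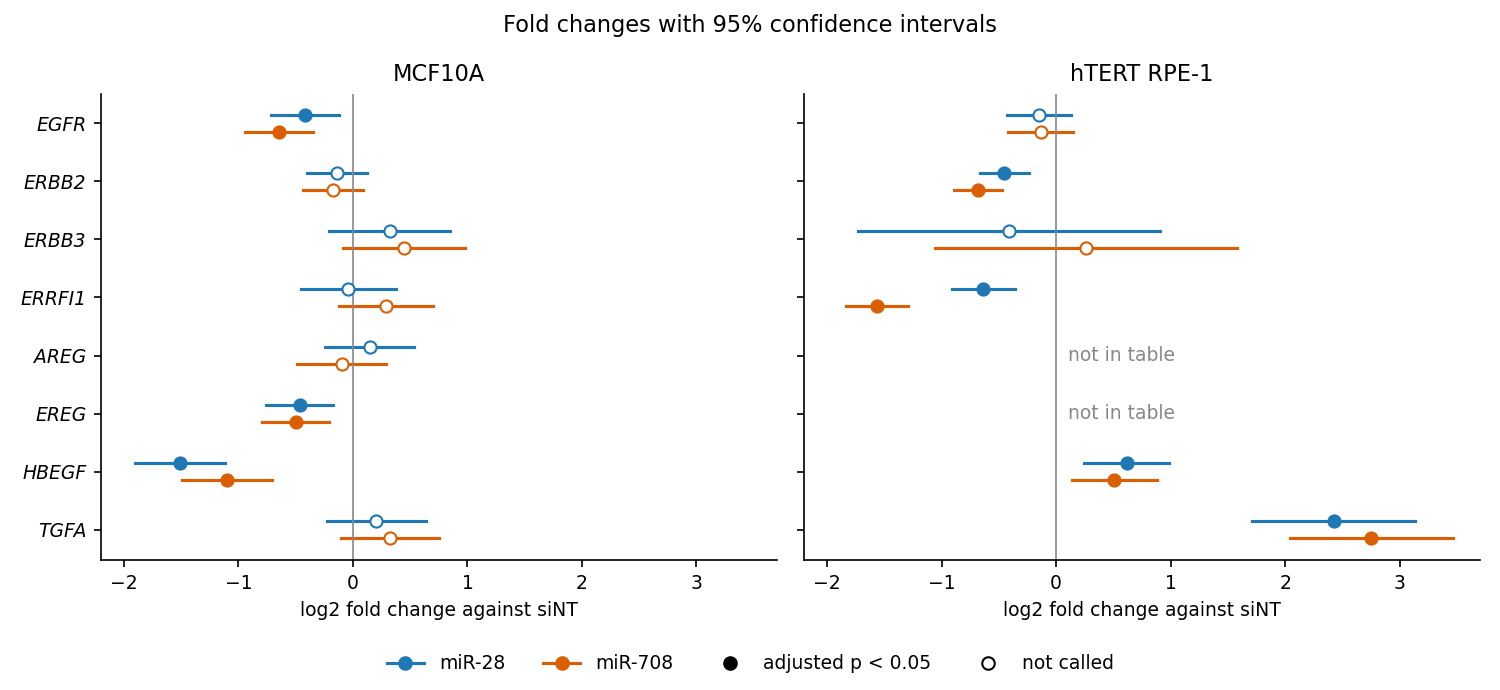
limma log2 fold changes of the 8 genes against siNT in MCF10A (left) and hTERT RPE-1 (right), with lines for 95% confidence intervals, blue for miR-28, orange for miR-708 and filled points for an adjusted p below 0.05. HBEGF lies at -1.51 and -1.10 in MCF10A, and in hTERT RPE-1 at 0.62 and 0.51, and TGFA reaches 2.75 in hTERT RPE-1.

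Among the members, the receptors of hTERT RPE-1 showed 1 change. EGFR had values of 9041, 7989.8 and 9674 in siNT, 8204, 7107 and 8827 with miR-28 and 8161, 6946 and 9301 with miR-708. The groups overlapped, and the log2 fold changes were -0.15 (95% interval -0.43 to 0.13) and -0.14 (-0.42 to 0.14). ERBB2 went from 2776, 2935 and 2365 in siNT to 1931, 1844 and 2110.1 with miR-28 and 1636, 1744 and 1634 with miR-708. No 2 of the 3 groups overlapped, and the log2 fold changes of ERBB2 were -0.45 (SE 0.096, limma adjusted p = 0.00321) and -0.68 (SE 0.096, adjusted p = 0.000132). ERBB3 had values of 5.18, 10.1 and 14.7 in siNT, 5.45, 3.75 and 14.0 with miR-28 and 14.9, 18.1 and 5.11 with miR-708, where 3 reads correspond to 2.36 to 4.41. At this level a change of ERBB3 was not detectable, with intervals of -1.73 to 0.91 and -1.06 to 1.58 on the log2 scale.

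Both ligands among the members in the hTERT RPE-1 table rose. TGFA, low in this line, had values of 25.9, 12.2 and 20.5 in siNT, 78.5, 153 and 95.5 with miR-28 and 115, 170.3 and 117 with miR-708. All mimic libraries stood well above the siNT libraries, and the mimic groups overlapped. The log2 fold changes of TGFA were 2.42 (SE 0.32, limma adjusted p = 0.000191) and 2.75 (SE 0.32, adjusted p = 3.61e-05), and without miR-28 replicate 1, the library with the high rRNA share, the first was 2.63 (adjusted p = 0.00012). HBEGF went from 1131, 1451 and 1629 to 1783, 2412 and 2236 with miR-28 and 1957, 1665 and 2371 with miR-708. The lowest miR-708 library was just above the highest siNT library, and the log2 fold changes of HBEGF were 0.62 (SE 0.17, adjusted p = 0.0121) and 0.51 (SE 0.17, adjusted p = 0.0216). Both HBEGF calls were lost without siNT replicate 1 (0.47, adjusted p = 0.0528, and 0.36, adjusted p = 0.0933), and the second also without miR-708 replicate 3 (0.38, adjusted p = 0.0916).

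The inhibitor ERRFI1 separated the mimics in hTERT RPE-1. It had values of 6187, 6409 and 6643 in siNT, 4317, 4598 and 3536 with miR-28 and 2219, 2484 and 1851 with miR-708. The 3 groups formed 3 steps with no overlap, and the log2 fold changes were -0.64 (SE 0.12, limma adjusted p = 0.00193) and -1.56 (SE 0.12, adjusted p = 2.79e-06). Between the mimics, ERRFI1 was lower with miR-708 by a log2 difference of -0.93 (SE 0.12, adjusted p = 0.00124), the 1 member of 6 called in that comparison, beside 21.2% of all genes tested (9.88% higher, 11.4% lower). ERBB2 also did not overlap between the mimics, as 38.7% of all genes did not, and its difference of -0.23 was not called (adjusted p = 0.116). For EGFR, HBEGF, TGFA and ERBB3 the mimic groups overlapped, with 95% intervals of -0.27 to 0.29, -0.48 to 0.27, -0.38 to 1.04 and -0.65 to 1.99. Without miR-28 replicate 1 the 4 members called with miR-28 were still called, at -0.44 for ERBB2, 0.74 for HBEGF and -0.67 for ERRFI1.

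The lines were compared through their fold changes, since the 2 tables were scaled separately. The difference, hTERT RPE-1 minus MCF10A, was called for 2 of the 6 shared members with miR-28, HBEGF and TGFA, beside 23.4% of 13339 genes, and for 5 of 6 with miR-708, all but ERBB3, beside 39.8%. HBEGF moved in opposite directions in the lines and differed by 2.13 (SE 0.25, adjusted p = 4.92e-06) with miR-28 and 1.61 (SE 0.25, adjusted p = 2.84e-05) with miR-708 on the log2 scale, both p from the 2 limma fits with Benjamini-Hochberg adjustment. TGFA differed by 2.22 (adjusted p = 0.000571) and 2.43 (adjusted p = 7.71e-05). The difference for ERRFI1 was -1.85 (adjusted p = 3.97e-06) with miR-708 and -0.60 (adjusted p = 0.0613) with miR-28, where it was called with a replicate block (adjusted p = 0.00865) and without miR-28 replicate 7 (-0.81, adjusted p = 0.00704) or miR-708 replicate 7 (adjusted p = 0.0322) of MCF10A or miR-28 replicate 2 of hTERT RPE-1 (adjusted p = 0.0424). ERBB2 differed by -0.51 (adjusted p = 0.0115) with miR-708, and with miR-28 by -0.31 (adjusted p = 0.142), called without siNT replicate 3 of hTERT RPE-1 (adjusted p = 0.0494). The first was a call lost when each library was scaled to the same sum (-0.33, adjusted p = 0.099). With miR-708, EGFR differed by 0.51 (adjusted p = 0.0315), lost without siNT replicate 7 or miR-708 replicate 8 or 9 of MCF10A or without siNT replicate 2 or miR-708 replicate 1 or 3 of hTERT RPE-1 (0.41 to 0.51, adjusted p of 0.0562 to 0.101). The EGFR difference was also lost without the variance trend (adjusted p = 0.0525). Tissue of origin, medium and the set of replicates (7 to 9 or 1 to 3) are among the things that differ with the line. They cannot be told apart here. RPS28 also fell further in hTERT RPE-1, from 3219.5 to 147 and 153, than in MCF10A, from 3870.0 to 567 and 624. Its part in these differences was not tested.

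**Figure D3:**
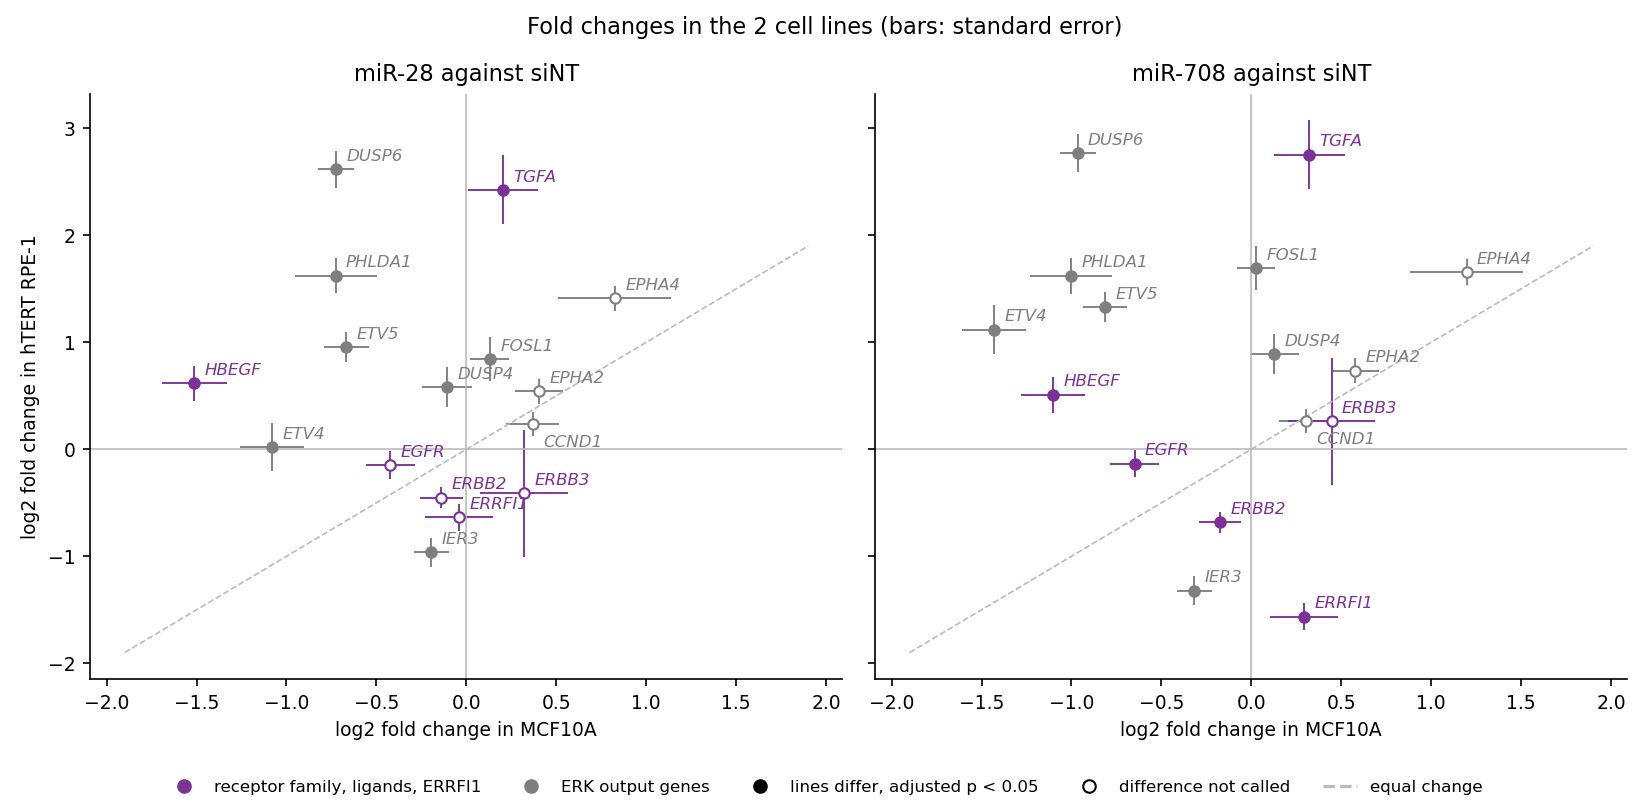
log2 fold changes against siNT in hTERT RPE-1 (vertical axis) and MCF10A (horizontal axis) for the 6 shared members (purple) and 10 ERK output genes (grey), with standard errors as bars, filled points for a called difference between the lines and a dashed line where both changes are equal. HBEGF, DUSP6, PHLDA1 and ETV5 lie in the upper left part with both mimics, lower in MCF10A and higher in hTERT RPE-1, and ERRFI1 lies at -1.56 in hTERT RPE-1 and 0.29 in MCF10A with miR-708.

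Levels of the members were set side by side per kilobase of transcript, within a line. In siNT-treated MCF10A, AREG was the highest, at 8114 ± 1187 per kilobase (SD, n = 3), followed by EGFR at 1880.0 ± 259.9 and ERRFI1 at 1860.0 ± 99.3, which overlapped. HBEGF (578 ± 108) and TGFA (498 ± 136) came next and overlapped, then EREG (194 ± 25.9) and ERBB2 (188 ± 16.4), which also overlapped, and ERBB3 was the lowest at 113 ± 38.4. With the mimics HBEGF dropped behind TGFA in this order, at 201 ± 27.2 against 563 ± 68.5 with miR-28 and 269.8 ± 59.2 against 620.0 ± 151 with miR-708. In siNT-treated hTERT RPE-1, ERRFI1 was the highest at 2071 ± 73.7 per kilobase, above EGFR at 899 ± 85.9, HBEGF at 595 ± 107 and ERBB2 at 591 ± 64.5, the last 2 of which overlapped. TGFA (4.75 ± 1.68) and ERBB3 (1.78 ± 0.846) were far below them. With miR-708, ERRFI1 at 705 ± 103 overlapped EGFR at 821 ± 119, and TGFA at 32.6 ± 7.62 was still below ERBB2 at 367 ± 13.8. These order statements are descriptions with no test.

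Beyond the 8 members, 70 genes in 7 lists covered the rest of the pathway. The lists were chosen with earlier results of these data known, and 68 of the genes were tested in MCF10A and 67 in hTERT RPE-1. In MCF10A, 12 of 68 were called with miR-28 (3 higher, 9 lower) and 22 with miR-708 (8 higher, 14 lower), beside 22.7% and 32.8% of all genes, and a replicate block brought these counts to 20 and 31, beside 29.9% and 39.5%. In hTERT RPE-1, 39 of 67 were called with miR-28 (21 higher, 18 lower) and 50 with miR-708 (26 higher, 24 lower), beside 46.8% and 62.1%. Medians over the lists together were -0.089 and -0.090 in MCF10A, and in hTERT RPE-1 0.020 and 0.19 on the log2 scale. Between the mimics, 2 of 68 were called in MCF10A, both higher with miR-708, beside 1.55% of all genes, and 19 of 67 in hTERT RPE-1, beside 21.2%.

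The list of 10 ERK output genes, transcripts that follow ERK activity in many cells, was called in part in each line. In MCF10A, 5 of 10 were called with miR-28 (1 higher, 4 lower) and 7 with miR-708 (2 higher, 5 lower), beside 22.7% and 32.8% of all genes. The list medians there were -0.15 and -0.15. In hTERT RPE-1, 8 of 10 were called with miR-28 (7 higher, 1 lower) and 9 with miR-708 (8 higher, 1 lower), beside 46.8% and 62.1% of all genes. The medians in that line were 0.71 and 1.22. The difference between the lines was called for 7 of 10 with each mimic, beside 23.4% and 39.8% of genes. Because the list was chosen with earlier results of these data known, these counts are a description and not a test of the list. The fold changes had opposite signs in the lines for 5 of 10 with miR-28 and 4 of 10 with miR-708. The share over all genes was not counted, and the first count includes ETV4, which was at 0.020 in hTERT RPE-1 with overlapping groups. IER3, an early response gene chosen after its values were seen, differed the other way, by -0.77 (adjusted p = 0.00305) and -1.0 (adjusted p = 0.000117), with log2 fold changes of -0.96 and -1.32 in hTERT RPE-1. In MCF10A those of IER3 were -0.19 (adjusted p = 0.173) and -0.32 (adjusted p = 0.0286), and the second was lost without siNT replicate 8 or 9 or miR-708 replicate 8 or 9 (adjusted p of 0.0626 to 0.107) and when libraries were scaled to the same sum (-0.17, adjusted p = 0.173). DUSP6, the ERK phosphatase, had values of 3896, 3961 and 4219 in siNT, 2277, 2695 and 2349.7 with miR-28 and 2282, 1988 and 1923 with miR-708 in MCF10A. In hTERT RPE-1 its values were 181, 193 and 247 in siNT, 1244, 1551 and 1038 with miR-28 and 1376, 1667 and 1199 with miR-708. DUSP6 thus fell in all 6 mimic libraries of one line and rose in all 6 of the other, by log2 fold changes of -0.72 (adjusted p = 0.000931) and -0.97 (adjusted p = 7.98e-05) in MCF10A, and in hTERT RPE-1 2.62 (adjusted p = 2.46e-06) and 2.77 (adjusted p = 6.25e-07), and the lines differed by 3.34 and 3.73.

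PHLDA1, a gene induced by growth factors, fell in MCF10A (log2 fold changes of -0.73 and -1.0) and rose by 1.62 and 1.62 in hTERT RPE-1. The miR-28 call of PHLDA1 in MCF10A (adjusted p = 0.04) was lost without siNT replicate 7 or 9 or miR-28 replicate 8 or 9 (log2 fold changes of -0.67 to -0.62, adjusted p of 0.119 to 0.124). This call was also lost when libraries were scaled to the same sum (-0.62, limma adjusted p = 0.0671) and without the trend (adjusted p = 0.0934). ETV4, a transcription factor gene, fell in MCF10A from 497, 538 and 501 in siNT to 298, 216 and 219.8 with miR-28 and 228, 190.2 and 157 with miR-708. In hTERT RPE-1 the log2 fold change of ETV4 was 0.020 with miR-28, where the groups overlapped, and 1.12 (adjusted p = 0.0014) with miR-708. Its relative ETV5, chosen after its values were seen, fell in MCF10A (log2 fold changes of -0.67 and -0.81) and rose by 0.96 and 1.33 in hTERT RPE-1. EPHA4, an ephrin receptor gene, did not share the split, with 0.82 (adjusted p = 0.0792) and 1.20 (adjusted p = 0.0133) in MCF10A, and in hTERT RPE-1 1.41 and 1.66. In MCF10A the EPHA4 value with miR-28 was called without miR-28 or miR-708 replicate 7 (adjusted p = 0.0402 and 0.025) and with a replicate block (adjusted p = 0.00934), and that with miR-708 was lost without miR-708 replicate 9 (0.90, adjusted p = 0.0584).

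**Figure D4:**
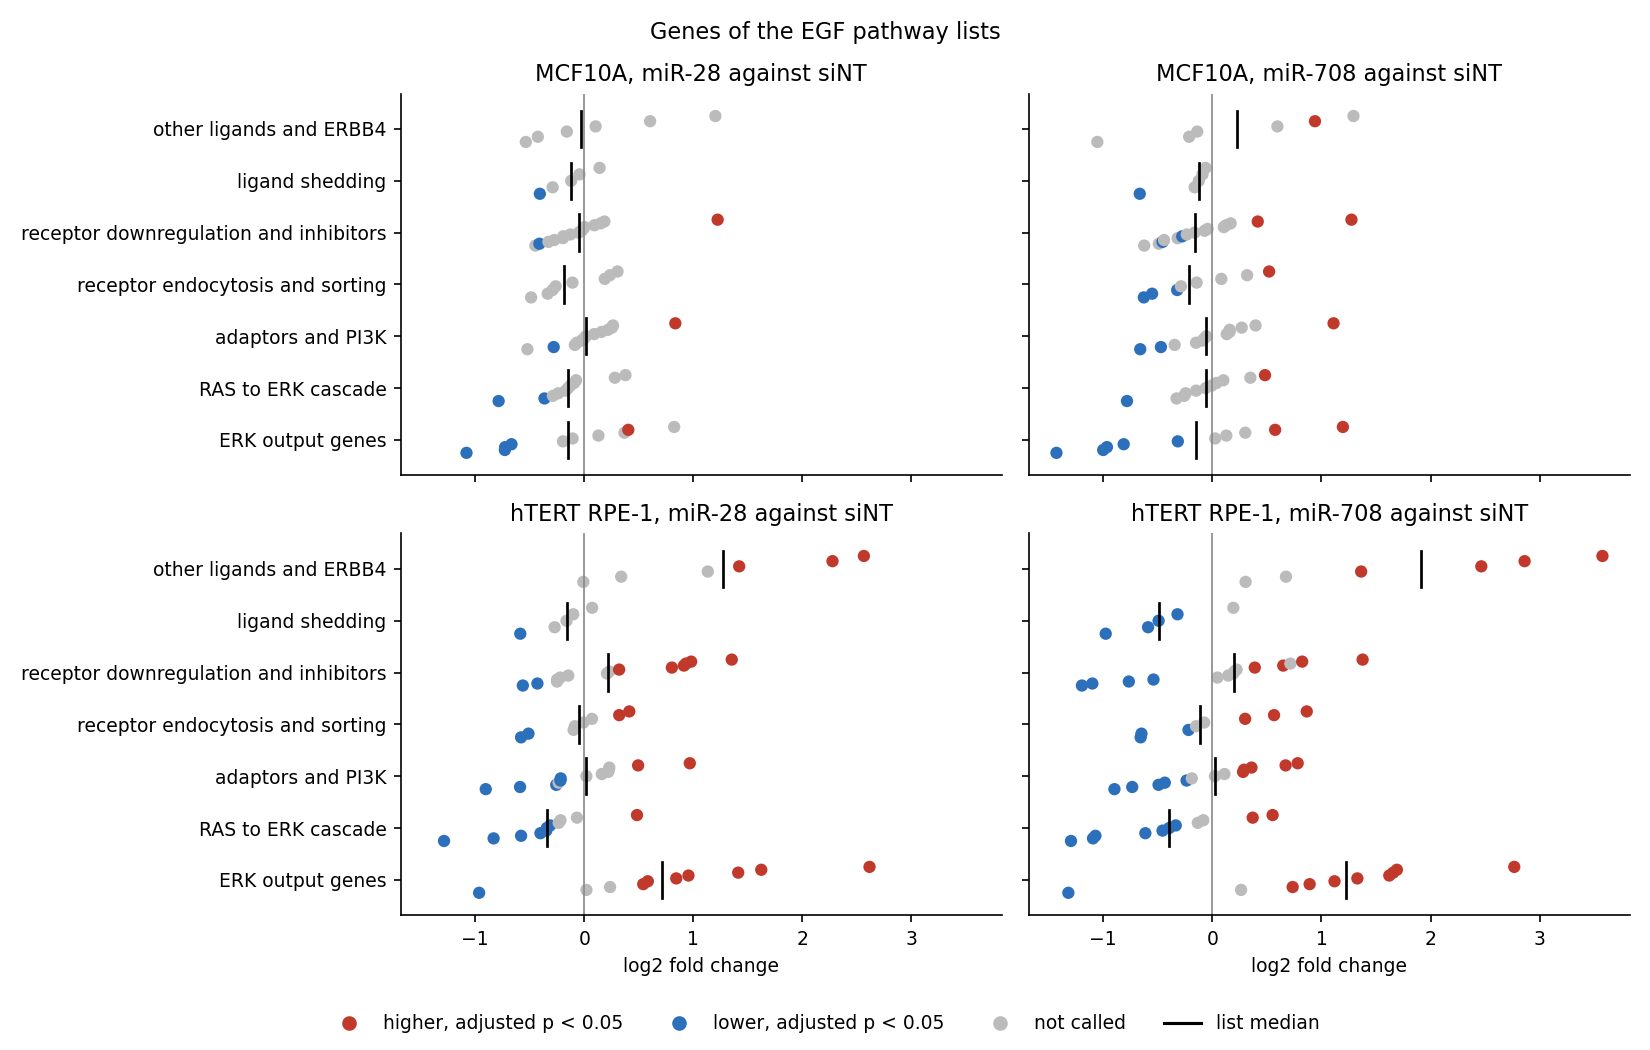
limma log2 fold changes against siNT of the genes of the 7 pathway lists, with 1 panel a line and mimic, 1 point a gene, red or blue for a called higher or lower value, grey for no call and a black bar for the list median. The ERK output genes have medians of -0.15 and -0.15 in MCF10A, and in hTERT RPE-1 of 0.71 and 1.22.

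Of the 15 inhibitors and other proteins that turn the receptor down, 2 were called with miR-28 (1 higher, 1 lower) and 4 with miR-708 (2 higher, 2 lower) in MCF10A, and 8 of 14 with each mimic in hTERT RPE-1 (6 higher and 2 lower, then 4 and 4). The Sprouty genes SPRY2 and SPRY4, which encode inhibitors of RAS to ERK signalling, rose in hTERT RPE-1, SPRY2 by log2 fold changes of 1.35 and 0.82 and SPRY4 by 0.93 and 1.38. In MCF10A neither was called, with SPRY2 at -0.19 and -0.16 and SPRY4 at -0.33 (adjusted p = 0.0501) and -0.071. The miR-28 value of SPRY4 was called with a replicate block (adjusted p = 0.0383) and without miR-708 replicate 7 or 9 (adjusted p = 0.0431 and 0.0434). SPRED3, a low gene of the Sprouty-related group, had values of 17.96, 47.1 and 50.2 in siNT, 76.4, 84.6 and 88.7 with miR-28 and 60.0, 103 and 103 with miR-708 in MCF10A. Its siNT replicate 7 stood low, the log2 fold changes of 1.22 and 1.28 were called, and without that library they were 0.76 (adjusted p = 0.105) and 0.81 (adjusted p = 0.0675). The first call of SPRED3 was also lost without miR-28 replicate 7, 8 or 9 or miR-708 replicate 8 (adjusted p of 0.0501 to 0.099), and the second without miR-708 replicate 8 or 9 (adjusted p of 0.0819 to 0.0846). Without the trend the first was lost too (limma adjusted p = 0.061). RNF41, a ubiquitin ligase of ERBB3, fell in MCF10A with both mimics (-0.41 and -0.46) and in hTERT RPE-1 with miR-708 (-0.77, adjusted p = 0.000306).

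Among the other ligands and ERBB4, 0 of 6 were called with miR-28 (limma, with 0 at an unadjusted p below 0.05) and 1 with miR-708 in MCF10A, and 3 and 4 of 6 in hTERT RPE-1, all higher. Beside them, 22.7% and 32.8% of all genes were called in MCF10A (10.7% and 15.5% higher). In hTERT RPE-1 the shares were 46.8% and 62.1% (23.3% and 30.9% higher). BTC, the gene of betacellulin, had values of 10.4, 7.09 and 24.9 in siNT, 17.5, 229 and 115 with miR-28 and 114, 172 and 203 with miR-708 in hTERT RPE-1. The miR-28 group was widely spread, with replicate 1 within the siNT range and the other two far above it, and the log2 fold changes of BTC were 2.56 (adjusted p = 0.019) and 3.58 (adjusted p = 0.00213). The first was 3.61 (adjusted p = 0.00012) without miR-28 replicate 1, and it was lost without siNT replicate 1 or 2 or miR-28 replicate 2 or 3 (1.79 to 2.45, adjusted p of 0.0576 to 0.0702). In MCF10A, BTC was called higher with miR-708 (0.94, adjusted p = 0.0449), a call that did not hold without siNT replicate 8 or 9, miR-28 replicate 8 or any 1 miR-708 library (adjusted p of 0.061 to 0.134). Nor did this call hold without the trend (limma adjusted p = 0.0673). ERBB4, the fourth receptor of the family, went in hTERT RPE-1 from 42.3, 68.9 and 20.5 to 127, 147 and 65.2 with miR-28 and 53.4, 91.3 and 51.9 with miR-708. Its log2 fold changes were 1.42 (adjusted p = 0.0215) and 0.68 (adjusted p = 0.202), and the first was lost without siNT replicate 3 (0.97, adjusted p = 0.0745) or miR-28 replicate 2 (1.19, adjusted p = 0.0659).

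Of the 5 genes of ligand shedding, 1 was called with each mimic in MCF10A, and in hTERT RPE-1 1 and 4, all lower. Over all genes tested, 22.7% and 32.8% were called in MCF10A (12% and 17.3% lower). The shares in hTERT RPE-1 were 46.8% and 62.1% (23.5% and 31.2% lower). RHBDF2, the gene of iRhom2, which carries ADAM17 to the cell surface, was lower with miR-708 in both lines, with log2 fold changes of -0.67 (adjusted p = 0.00307) in MCF10A and -0.98 (adjusted p = 0.00162) in hTERT RPE-1. With miR-28 it was called in hTERT RPE-1 (-0.59, adjusted p = 0.0343), a call lost without siNT replicate 1 or 2 or miR-28 replicate 1 or 3 (adjusted p of 0.0711 to 0.125). That call was also lost in limma with libraries scaled to the same sum (-0.50, adjusted p = 0.0743). So it was without the trend (adjusted p = 0.051) and with only the 2 groups compared (adjusted p = 0.053). ADAM17, the main protease of these ligands, was called in MCF10A with miR-28 (-0.41, adjusted p = 0.0281), lost without siNT replicate 7 or 8 or miR-28 replicate 8 or 9 (adjusted p of 0.0613 to 0.1). Scaling libraries to the same sum (-0.30, limma adjusted p = 0.0606) or leaving out the trend (adjusted p = 0.0624) lost the ADAM17 call too. ADAM9 was lower in hTERT RPE-1 with miR-708 (-0.49, adjusted p = 0.00541), a call lost when libraries were scaled to the same sum (-0.17, adjusted p = 0.297).

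In receptor endocytosis and sorting, 0 of 8 genes were called with miR-28 in MCF10A (limma, with 5 at an unadjusted p below 0.05) and 4 with miR-708 (1 higher, 3 lower), and 4 and 6 in hTERT RPE-1 (2 higher and 2 lower, then 3 and 3). All genes tested were called at 22.7% and 32.8% in MCF10A and at 46.8% and 62.1% in hTERT RPE-1. CD2AP, which with SH3KBP1 links CBL to endocytosis, fell with miR-708 in MCF10A (-0.63, adjusted p = 0.00187) and with both mimics in hTERT RPE-1 (-0.58 and -0.65). In MCF10A, CD2AP was also called with miR-28 without miR-28 or miR-708 replicate 7 (adjusted p = 0.0253 and 0.0489) and in the fit with a replicate block (-0.33, adjusted p = 0.0146), and in hTERT RPE-1 its miR-708 call was lost when libraries were scaled to the same sum (-0.33, adjusted p = 0.0583). SH3KBP1 rose in hTERT RPE-1 by 0.41 and 0.87, the first lost without siNT replicate 2 (0.36, adjusted p = 0.0536). USP8, a deubiquitinase of sorted receptors, fell with miR-708 in MCF10A (-0.55, adjusted p = 0.00324).

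The adaptor and PI3K list had 2 of 13 genes called with miR-28 (1 higher, 1 lower) and 3 with miR-708 (1 higher, 2 lower) in MCF10A, and 7 (2 higher, 5 lower) and 10 (5 and 5) in hTERT RPE-1. GAB2, a docking protein gene, had values of 87.4, 96.4 and 81.3 in siNT, 184, 121 and 177 with miR-28 and 141, 194 and 257 with miR-708 in MCF10A. In hTERT RPE-1 its values were 1109, 1043 and 873 in siNT, 761, 545 and 715 with miR-28 and 531, 505 and 581 with miR-708. The changes were thus of opposite sign, at 0.84 and 1.11 in MCF10A, and in hTERT RPE-1 -0.59 and -0.90 on the log2 scale, with differences between the lines of -1.42 (adjusted p = 0.00177) and -2.01 (adjusted p = 2.68e-05). The miR-28 call in MCF10A was lost without siNT replicate 7, 8 or 9 or miR-28 replicate 7 or 9 (adjusted p of 0.0595 to 0.0976). PIK3CB, a catalytic subunit gene of PI3K, was lower with miR-708 in MCF10A (-0.66, adjusted p = 0.018) and with both mimics in hTERT RPE-1 (-0.90 and -0.73). In MCF10A that call was lost without siNT replicate 7 or miR-708 replicate 8 or 9 (adjusted p of 0.0509 to 0.0782), and the miR-28 value was called without miR-28 replicate 7 or miR-708 replicate 7 or 9 (adjusted p of 0.0266 to 0.0447) and with a replicate block (-0.52, adjusted p = 0.00335). PIK3R1, the gene of the alpha regulatory subunit, rose in hTERT RPE-1 by 0.97 and 0.78.

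In the cascade from RAS to ERK, 2 of 11 genes were called with each mimic in MCF10A (2 lower, then 1 higher and 1 lower), and 8 (1 higher, 7 lower) and 9 (2 higher, 7 lower) in hTERT RPE-1. The calls over all genes were 22.7% and 32.8% in MCF10A (12% and 17.3% lower). They were 46.8% and 62.1% in hTERT RPE-1 (23.5% and 31.2% lower). NRAS fell with both mimics in both lines, from 3041, 2938 and 2848 to 1987, 1639 and 1528 with miR-28 and 2136, 1562 and 1497 with miR-708 in MCF10A. In hTERT RPE-1 it went from 3271, 3582 and 4442 to 1456, 1549.6 and 1592 with miR-28 and 1623, 1400.2 and 1546 with miR-708. Its log2 fold changes were -0.78 (adjusted p = 0.00337) and -0.78 (adjusted p = 0.00176) in MCF10A, and in hTERT RPE-1 -1.29 (adjusted p = 1.38e-05) and -1.30 (adjusted p = 5.29e-06). HRAS had log2 fold changes of 0.38 (adjusted p = 0.0755) and 0.48 (adjusted p = 0.0222) in MCF10A. In hTERT RPE-1 those of HRAS were 0.48 (adjusted p = 0.014) and 0.55 (adjusted p = 0.00481), and the first was lost without miR-28 replicate 3 (0.38, adjusted p = 0.0584). In MCF10A, HRAS with miR-28 was called with a replicate block (adjusted p = 0.0393), and with miR-708 it was lost without siNT replicate 7 or 9 or miR-708 replicate 9 (adjusted p of 0.0692 to 0.0867). MAPK3, which encodes an ERK kinase, fell in hTERT RPE-1, with log2 fold changes of -0.83 and -1.07, and was at -0.29 and 0.039 in MCF10A, not called.

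The genes whose values followed a member most closely were found by Pearson's r of log2(value + 1) over the 9 libraries of a line, which share their groups and scaling, and the r is given as a description. For HBEGF in MCF10A, out of 11258 genes with a mean value of at least 100, they included SLC25A12 (r = 0.988) and ZFYVE9 (0.983). For TGFA in hTERT RPE-1, out of 11440 genes, they were CREBRF (0.991), CALCRL (0.990) and ZDHHC14 (0.989).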

How the data were processed

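PolyA+ RNA of 18 libraries was sequenced in paired-end mode, in biological triplicate. The authors trimmed adapters, aligned reads with HISAT2 2.1.0 to hg38 and estimated reads per RefSeq transcript in Partek Flow. The deposited values are a signal, namely estimated reads per gene divided by a size factor of each library, which the values show to be a median of ratios, set separately for each line. In each library 81.2 to 86.7% of low values were whole multiples of 1 read's worth (tolerance 0.02), too few to recover reads, so no count test was used. Other deposited tables held the authors' own comparisons, as a ratio, a log2 ratio, p-values and means, and were not used.

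Values were tested as log2(value + 1) with limma 3.58.1 in R 4.3.3, which gave 1 mean to each of the 3 groups of a line, with a trend in the prior variance, on genes with values of 10 or more in 3 or more libraries. p-values were adjusted by Benjamini-Hochberg over all genes kept, with a threshold of 0.05. Fold changes on this scale understate those of low genes. With 3 against 3, an exact permutation test could not go below 0.1 and was not used. Differences between lines were differences of the limma fold changes, with Welch-Satterthwaite degrees of freedom, over the 13339 genes tested in both. The scripts were tested on simulated data. Alternatives were other pseudocounts and filters, library size scaling, no trend, only the 2 groups compared, a replicate block and leaving out each library.

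Deviations from the group means correlated between MCF10A libraries of the same number in every mimic and siNT pair (r = 0.111 to 0.302). Between the mimics of MCF10A r was 0.025 to 0.177. In hTERT RPE-1 r was 0.021 to 0.151 for mimic and siNT pairs and 0.134 to 0.278 between the mimics. These ranges overlap, so they do not set 1 line apart as paired. In both lines every same-number r was above 0. The mean r with libraries of another number was below 0 (-0.174 to -0.011), in part because deviations from a group mean sum to 0. Same-numbered libraries thus deviated together in both lines. The main fit had no replicate term in either line, and the replicate block was an alternative. From each of the 7 pathway lists and in each line, the 2 genes with the largest absolute mean of their 2 log2 fold changes were named, among those called with either mimic whose mean was 50 or more, and ETV5 and IER3 were added after their values were seen. The members, the pathway lists and the marker lists were chosen with earlier results of these data known. Sequences came from RefSeq (GRCh38.p14) and from hg38 with GENCODE 44. Some genes are not reported here.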

Additional observations from a re-analysis of the deposited data

Results flagged for a closer look

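The effect of a mimic differed between hTERT RPE-1 and MCF10A, by a test of the difference itself (limma, Benjamini-Hochberg adjusted p below 0.05), for 14 of 29 members and named pathway genes with miR-28 and for 20 of 29 with miR-708, beside 23.4% and 39.8% of the 13339 genes tested. The named genes were chosen for large fold changes in these data, and ETV5 and IER3 after their values were seen, so these counts are a description. The values are differences of log2 fold changes, hTERT RPE-1 minus MCF10A. With miR-28 the members HBEGF (2.13) and TGFA (2.22) were among them, with miR-708 the members EGFR (0.51), ERBB2 (-0.51), ERRFI1 (-1.85), HBEGF (1.61) and TGFA (2.43). The pathway genes above 0 with miR-28 were BTC (2.46), DUSP6 (3.34), ETV4 (1.10), ETV5 (1.62), PHLDA1 (2.35), PIK3R1 (0.70), SH3KBP1 (0.90), SPRY2 (1.54) and SPRY4 (1.26), and those below 0 were GAB2 (-1.42), IER3 (-0.77) and NRAS (-0.50). With miR-708 those above 0 were BTC (2.64), DUSP6 (3.73), ETV4 (2.55), ETV5 (2.14), PHLDA1 (2.62), SH3KBP1 (1.15), SPRY2 (0.99), SPRY4 (1.45) and USP8 (0.40), and those below 0 were ADAM9 (-0.43), GAB2 (-2.01), IER3 (-1.0), MAPK3 (-1.11), NRAS (-0.51) and SPRED3 (-1.05). HBEGF, DUSP6, PHLDA1, ETV5 and GAB2 were, in addition, called against siNT in each line, with opposite signs, with both mimics. The share of all genes called in this way was not counted. The miR-28 calls of PHLDA1 and GAB2 in MCF10A and both HBEGF calls in hTERT RPE-1 were each lost without at least 1 library. That of PHLDA1 was also lost when libraries were scaled to the same sum and without the trend. The differences for BTC, NRAS, PIK3R1 and SH3KBP1 with miR-28 and for ADAM9, BTC, EGFR, NRAS, SPRED3 and USP8 with miR-708 were each lost without at least 1 of the libraries. Both comparisons share the siNT libraries of each line, so they are not independent of each other.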

How the results depend on the processing

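Of the alternatives, scaling each library to the same sum moved the most directions. The median over all genes moved to 0.12 and 0.14 with miR-28 and miR-708 in MCF10A and to 0.091 and 0.32 in hTERT RPE-1, where the difference between the mimics moved to 0.23. Under it 1 member, HBEGF, was called with miR-28 in MCF10A, as without the trend, and 4650 genes between the mimics in hTERT RPE-1 (84.8% higher, against 46.5% of 3084). Uncalled values changed sign under it: ERRFI1 with miR-28 to 0.071 and, with miR-708, AREG to 0.046, ADAM17 to 0.019, ADAM9 to 0.081 and SPRY4 to 0.073 in MCF10A and EGFR to 0.18 and USP8 to 0.17 in hTERT RPE-1. Between the mimics in hTERT RPE-1, ERBB2 became 0.0039 and HBEGF 0.13, and the difference between lines with miR-708 became 0.15 for CD2AP and 0.10 for PIK3CB.

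In MCF10A a replicate block called 5 members with miR-708, 20 pathway genes with miR-28 and 643 genes between the mimics. It changed no call of a member other than those given beside its result. In hTERT RPE-1 a replicate block called 4 members with each mimic and 6997 and 9101 genes of all, against 6798 and 9024. Between the mimics of that line the block called 1 member, as without it, and 3315 genes against 3084. Without the trend, 7 pathway genes were called with miR-28, and between the mimics 1 pathway gene and 150 genes of all, against 2 and 228. With only the 2 groups compared, limma called 0 pathway genes between the mimics.

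Leaving out 1 library at a time gave these ranges in MCF10A. Members called ran from 1 to 3 with miR-28 and from 2 to 5 with miR-708, pathway genes from 6 to 18 and from 12 to 28, and all genes from 1949 to 3951 and from 3175 to 5483. Between the mimics, 0 to 2 pathway genes and 116 to 383 of all genes were called. ERRFI1 with miR-28 ran from -0.16 to 0.18, BTC from -0.20 to 0.47, and AREG with miR-708 from -0.24 to 0.091. MAPK3 with miR-708 ran from -0.13 to 0.14. Between the mimics the ranges were -0.10 to 0.065 for ERBB2, -0.11 to 0.060 for EREG, -0.031 to 0.32 for ERBB3 and -0.073 to 0.23 for TGFA. In hTERT RPE-1, ETV4 with miR-28 ran from -0.18 to 0.13, ERBB3 with miR-708 ran from -0.11 to 0.76, and between the mimics EGFR from -0.090 to 0.12 and HBEGF from -0.24 to 0.018, with 6 to 24 pathway genes and 1509 to 4083 genes of all called. Differences between lines with miR-708 ran from -0.10 to 0.092 for CD2AP, -0.24 to 0.094 for PIK3CB, -0.0017 to 0.20 for HRAS and -0.55 to 0.32 for ERBB3. The cause of these changes was not tested. At the depth of hTERT RPE-1, 3 reads correspond to 2.36 to 4.41, beside siNT values of 5.18 to 14.7 for ERBB3, which limits what can be seen of that gene.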
